A study of Homo sapiens with 3 samples.

Results

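The FOS and JUN families were examined in the map of YTHDC1 on chromatin of A549 cells, an established human lung adenocarcinoma line. The 7 genes FOS, FOSB, FOSL1, FOSL2, JUN, JUNB and JUND were taken by name, and a peak was counted for a gene if it overlapped the gene, or the 1000 bases around it, by 1 base or more. By this rule 5 of the 6368 peaks belonged to the families. All 3 ChIP-seq samples formed a single group of wild-type cells with no treatment named in the labels. The authors joined their reads before calling peaks, so each peak has 1 value and no spread between replicates, and nothing below is a test. Libraries of input chromatin, IgG or YTHDC1-depleted cells were not used here, and a peak means a called region, not an affinity or a level of transcription. The depth of the samples is unknown, and the A549 identity could not be checked against marker genes in a list of peaks.

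FOS and JUN proteins pair through leucine zippers into the transcription factor AP-1, which binds the TPA response element and, in some pairings, the cAMP response element. FOS, FOSB, JUN and JUNB are classical immediate early genes, which are switched on within minutes of growth factor or stress signals, whereas FOSL1 is a later responder that is often high in carcinomas and JUND is expressed more steadily. YTHDC1 is the nuclear reader of N6-methyladenosine (m6A), a mark placed on RNA mainly in the GGACU setting and most often in long exons and near stop codons. RNA polymerase II is known to pause close to the start of many immediate early genes, and the study asked whether YTHDC1 on chromatin is tied to that step.

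Of the 7 genes, 4 had a peak (57.1%) and 3 had none. FOSL1 had 2 peaks, and FOSB, JUNB and JUND had 1 each, while FOS, FOSL2 and JUN had no peak. Over all 20163 protein-coding genes of the annotation, 25.1% had a peak by the same rule, and among the 9604 genes no longer than FOSL2, the longest member, 20.3% had one. When peaks were limited to a q-value below 0.05, FOSL1 and JUNB remained, 2 of 7 (28.6%), beside 14.3% of all protein-coding genes. The share of members was thus above the background under each of these counts, but it rests on 7 genes that were picked with results of this peak set known.

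Only FOSB had a peak within 200 bases of an annotated start, the window of the study. This is 1 of 7 genes (14.3%), beside 15.7% of all protein-coding genes, and 7 genes are too few to say whether the shares differ. The q-value of the FOSB peak was above 0.05. With the stricter q-value 0 of the 7 genes had a start peak, beside 8.96% of all protein-coding genes. Within 1000 bases of a start, 4 members had a peak, beside 20.0% of all protein-coding genes.

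**Figure D1:**
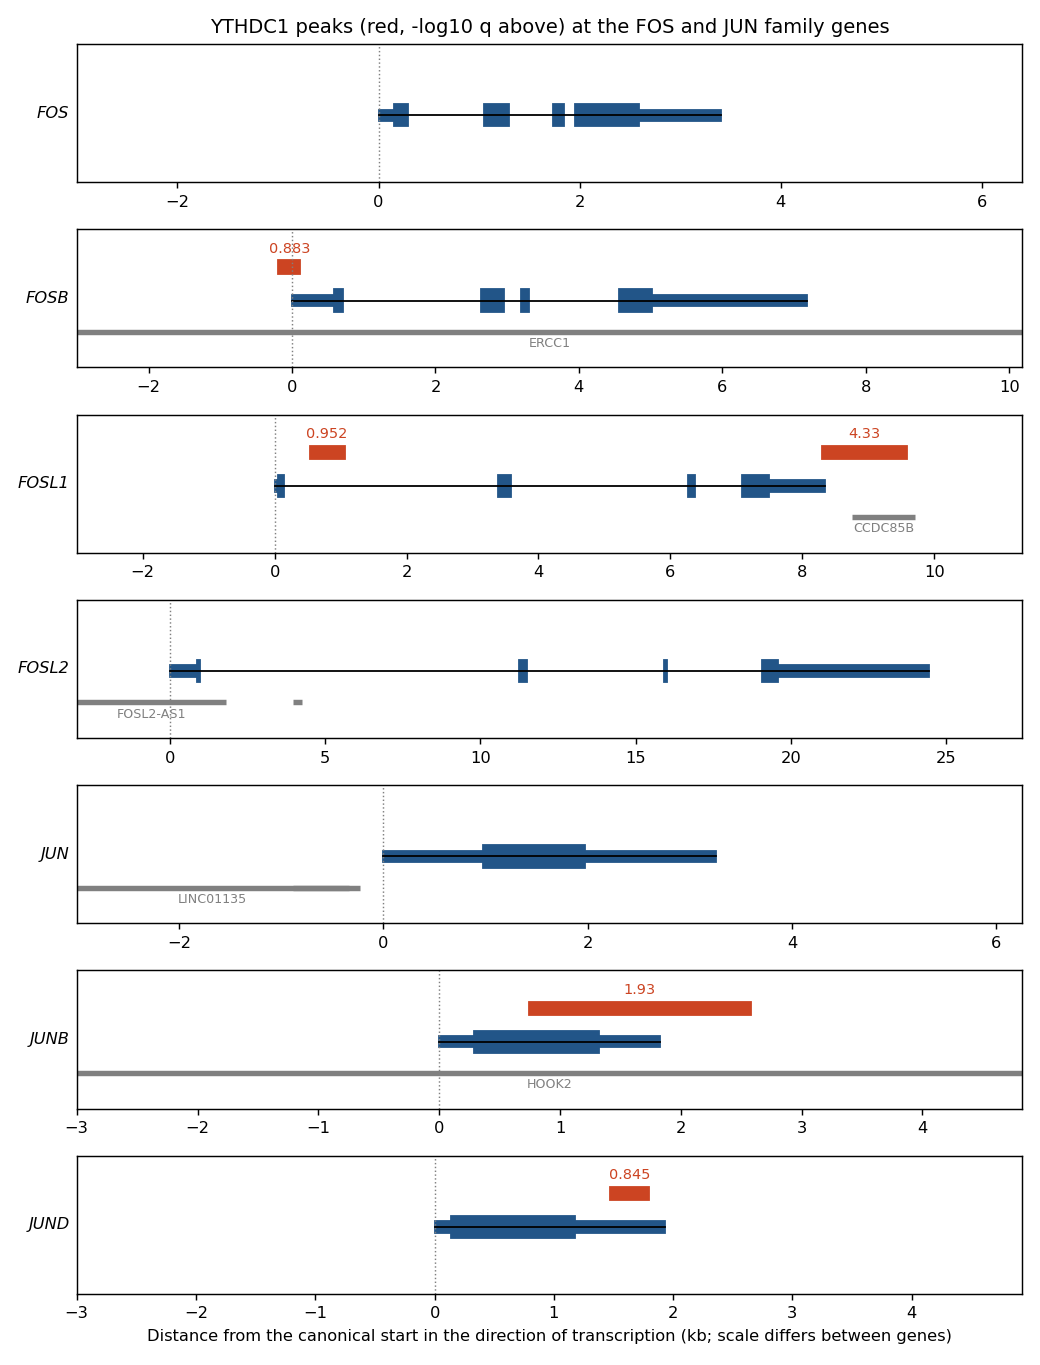
Map of the 7 genes with the distance from the canonical start in kb on the x axis, in the direction of transcription and with a scale of its own for each gene. Blue boxes are coding parts (tall) and untranslated parts (low), red bars are peaks with their −log10 q, and grey lines are other annotated genes; FOSB alone has a peak over its start, at 0.883, and FOS, FOSL2 and JUN have none.

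The sequence before the FOSB start, under the only start peak of the families, is shown first, together with the promoters of FOS and JUND for comparison, since FOS and JUND lacked a peak at the start. All sequences printed here were read from GRCh37, the assembly of the peaks, on the strand of the gene and from 5′ to 3′. In the FOSB, FOS and JUND sequences, capitals mark TGACGT, the core of the cAMP response element, and TATAAA, the core of the box that positions many starts, on either strand. The FOSB sequence is the part of the peak before the start (chr19:45971065-45971252), and those of FOS (chr14:75745281-75745530) and JUND (chr19:18392433-18392682) are the 250 bases before their canonical starts.
FOSB: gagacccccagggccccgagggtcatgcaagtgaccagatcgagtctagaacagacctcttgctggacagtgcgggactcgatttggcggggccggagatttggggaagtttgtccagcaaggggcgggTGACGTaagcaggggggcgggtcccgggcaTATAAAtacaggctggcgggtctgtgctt
FOS: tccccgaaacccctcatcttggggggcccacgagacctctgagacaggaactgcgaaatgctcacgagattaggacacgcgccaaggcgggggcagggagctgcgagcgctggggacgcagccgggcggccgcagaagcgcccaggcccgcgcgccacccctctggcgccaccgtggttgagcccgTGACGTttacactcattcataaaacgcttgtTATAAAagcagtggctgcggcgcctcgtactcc
JUND: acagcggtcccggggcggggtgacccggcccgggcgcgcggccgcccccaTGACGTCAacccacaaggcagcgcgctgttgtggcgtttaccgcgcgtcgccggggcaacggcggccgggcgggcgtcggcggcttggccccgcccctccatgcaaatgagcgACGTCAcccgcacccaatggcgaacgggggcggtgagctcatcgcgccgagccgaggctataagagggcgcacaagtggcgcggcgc

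The FOSB and FOS promoters looked alike in that each held 1 TGACGT followed by 1 TATAAA before the start. JUND had the full cAMP response element TGACGTCA and a further ACGTCA, the core on the other strand, and no TATAAA. Motifs were also counted in RefSeq promoters (build GRCh38.p14, 250 bases before to 50 after the start, both strands searched). Of the 7 members 6 matched, and FOSL1, which did not, was not searched. TGACGT occurred in 4 members, FOS, FOSB, FOSL2 and JUND, and in 7.98% of all 35116 promoters. TATAAA occurred in FOS, FOSB and JUNB and in 11.5% of all promoters. TGACGTCA, which contains TGACGT, was found in JUND and in 1.85% of promoters. The TPA response element TGACTCA was found in FOSL2 and in 4.95% of promoters. FOS thus held both motifs of FOSB and had no peak, and these matches are descriptions of letters, not of bound sites.

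FOSB (ENSG00000125740, chr19:45971253-45978437, plus strand) encodes a FOS family partner of JUN proteins, whose truncated form ΔFosB is known from neurons. Its peak (chr19:45971065-45971368, 304 bases) reached from 189 bases before the canonical start to 114 bases after it, over the first 115 bases of the 5' UTR in exon 1 of 4. The −log10 q was 0.883, a q-value of 0.131, and 82.9% of all peaks had a higher value. The whole peak also lay within ERCC1, a nucleotide excision repair gene annotated on the opposite strand with a long transcript that spans FOSB, in an intron. A stronger peak, with a −log10 q of 5.23, lay 11676 bases upstream of FOSB (chr19:45958910-45959577) and likewise inside ERCC1.

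FOSL1 (ENSG00000175592, chr11:65659520-65668044, minus strand) encodes FRA1, a FOS protein without the C-terminal activation domain of FOS, and was the only member with 2 peaks. Of all protein-coding genes, 872 (4.32%) had 2 or more. The weaker peak (chr11:65666800-65667326, 527 bases) lay wholly inside intron 1, from 533 to 1059 bases downstream of the canonical start, with a −log10 q of 0.952 and a q-value of 0.112. Its sequence was the richest in GC of the 5, at 72.3%, and 12.8% of all peaks had a higher GC share. The first intron is shown because it held the only TPA response element under a peak of the families. The stretch printed is the 300 bases of the peak farthest from the start (chr11:65666800-65667099, minus strand), with TGAGTCA, the reverse complement of TGACTCA, in capitals.
FOSL1: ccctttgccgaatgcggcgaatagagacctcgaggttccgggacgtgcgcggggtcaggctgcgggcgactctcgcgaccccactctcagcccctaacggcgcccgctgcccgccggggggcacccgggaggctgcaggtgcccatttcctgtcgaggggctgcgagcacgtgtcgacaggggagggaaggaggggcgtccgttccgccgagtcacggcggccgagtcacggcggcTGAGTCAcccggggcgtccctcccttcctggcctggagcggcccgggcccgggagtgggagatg

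In the middle 301 bases of peaks, TGACTCA on either strand occurred in 8.40% of the 6368 peaks, and it was in none of the 5 peaks of the families. The FOSL1 site lay outside the middle window of its own peak.

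The stronger FOSL1 peak lay at the 3' end of the gene and is shared with a neighbour. It spanned 1290 bases (chr11:65658270-65659559) with a −log10 q of 4.33, the highest of the families, and 226 of the 6368 peaks (3.55%) had a higher value. Only 40 of its bases fell in FOSL1, in the 3' UTR in exon 4 of 4, and 1250 lay past the canonical end. The neighbouring CCDC85B, which runs towards FOSL1 on the opposite strand, held 837 bases of the peak, and 413 bases lay between both genes. The peak began 126 bases after the start of CCDC85B and was therefore a start peak of that gene. FOSL1 and CCDC85B cannot be told apart as its gene, and without this peak FOSL1 kept only the intron 1 peak, with a q-value above 0.05.

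JUNB (ENSG00000171223, chr19:12902300-12904129, plus strand) encodes a JUN protein with weaker activating properties than JUN in many settings, and it is a short gene of 1 exon. Its peak covered 1833 bases (chr19:12903045-12904877), more than the 1830 bases of the gene itself, and 16 of all peaks (0.251%) were wider. It began 745 bases downstream of the start and ran over 582 bases of the coding sequence, the 503 bases from the stop codon to the end, which is the 3' UTR with the stop codon, and 748 bases past the end. The −log10 q was 1.93, a q-value of 0.0117, and 24.7% of peaks had a higher value, so the peak stood out by its width and not by its value. All 1833 bases also lay within HOOK2, a gene of the microtubule network annotated on the opposite strand across JUNB, and overlapped an exon of it. A transcript of HOOK2 starts within 200 bases of this peak. The deposited values carry no strand, so JUNB and HOOK2 cannot be told apart as its gene. The next peak lay 8539 bases upstream of JUNB, inside HOOK2 (chr19:12893326-12893761, −log10 q 2.50), outside the 1000 bases used here.

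The 30 bases around the only GGACT on the JUNB strand of the peak are shown because GGACU is the usual setting of m6A. They lay in the 3' UTR (chr19:12903741-12903770, plus strand), with GGACT in capitals. On either strand the peak held 3 GGACT, so the others lay on the strand of HOOK2.
JUNB GGACT site: gcaaaccacactGGACTccggccctcctac

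JUND (ENSG00000130522, chr19:18390504-18392432, minus strand) encodes the JUN protein that is most evenly expressed and is held in check by menin. Its peak (chr19:18390634-18390964, 331 bases) lay wholly within the 3' UTR of the single exon, 1468 to 1798 bases downstream of the start. With a −log10 q of 0.845, a q-value of 0.143, it was the weakest of the 5, and 86.2% of all peaks had a higher value. It had the lowest GC share, 47.4%, which 78.9% of peaks exceeded, and no other annotated gene overlapped it.

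Across the 5 peaks, the −log10 q was 0.845 for JUND, 0.883 for FOSB, 0.952 for the FOSL1 intron, 1.93 for JUNB and 4.33 for the FOSL1 end. The median was 0.952, beside 1.33 over all 6368 peaks, and 2 of the 5 peaks had a q-value under 0.05, beside 52.1% of all peaks. Their median width was 527 bases, beside 348 over all peaks. Both peaks past that q-value were also the widest, and the 3 others were called at q-values between 0.112 and 0.143. GGACT on the strand of the gene occurred once in the FOSB and JUNB peaks, in 2 places in the FOSL1 end peak, and not in the FOSL1 intron or JUND peaks. The FOSB match lay before the start, outside the transcript. The 2 FOSL1 matches lay too far apart for both to fall in the 40 bases of the peak inside FOSL1. On either strand, the whole peaks held 8 GGACT at the FOSL1 end, 3 in the FOSL1 intron, 3 at JUNB, and 1 each at FOSB and JUND. In the FOSL1 end and JUNB peaks, most of these thus lay on the strand of CCDC85B or HOOK2. In the middle 301 bases, GGACT on either strand occurred in 43.2% of all peaks, so a match there is common. Of the family peaks, those of FOSB and FOSL1 had it there, and those of JUNB and JUND did not.

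**Figure D2:**
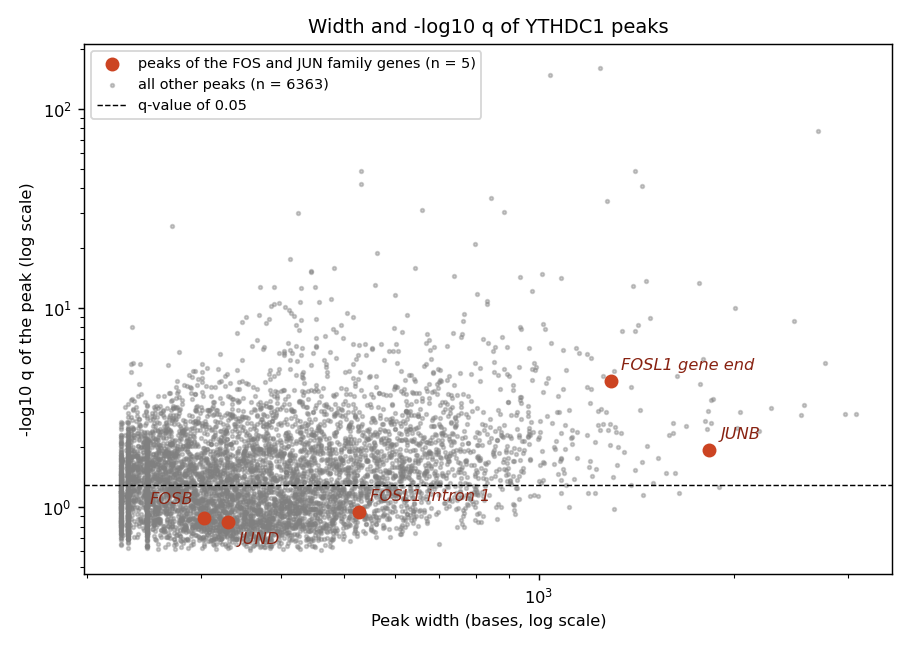
Peak width in bases (x axis) against −log10 q (y axis), both on log scales, for the 5 peaks of the FOS and JUN family genes (red) and all other peaks (grey), with a dashed line at a q-value of 0.05. The JUNB and FOSL1 end peaks lie above the line and far to the right, and the FOSB, JUND and FOSL1 intron peaks lie below it.

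Peaks near the 3' end were counted in a wider window than the 200 bases used at starts. Of the 7 genes, FOSL1, JUNB and JUND (42.9%) had a peak within 1000 bases of the canonical end, beside 2.73% of all protein-coding genes. This window was chosen after the peaks had been seen. With the same 1000 bases at the start, 4 members had a peak, beside 20% of all protein-coding genes. The peaks of JUNB and JUND counted in both windows. In genes as short as JUNB and JUND, at 1830 and 1929 bases, the window also covers more of the gene than in most others. Among the 1950 genes with a peak that were no longer than FOSL2, 20.6% had one near the end, beside 3 of the 4 members with a peak. The FOSL1 and JUNB peaks ran across the end, and each also lay at a start of a gene on the other strand. Over all protein-coding genes, 116 of 591 pairs of a gene and an end peak (19.6%) ran across the end, and 41.6% lay at a start of another gene.

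FOS, JUN and FOSL2 had no peak in or near the gene. FOS (ENSG00000170345, chr14:75745529-75748933, plus strand), the prototype immediate early gene, lay 151388 bases from the nearest peak, which was at the start of NEK9 (chr14:75593844-75594141, −log10 q 1.48). Of all protein-coding genes, 38.3% had a start farther from a peak than FOS. FOSL2 (ENSG00000075426, chr2:28615315-28640184, plus strand), which encodes FRA2, had its nearest peak 149530 bases beyond the gene, inside PLB1 (chr2:28789714-28789983, −log10 q 1.90), and 35.5% of genes had a start farther away. No peak lay within 100 kb of either start. JUN (ENSG00000177606, chr1:59242517-59249720, minus strand), the founding member of its family, was nearer to signal. A peak with a −log10 q of 3.02 (chr1:59281647-59282133) lay 31927 bases upstream of JUN, within the long non-coding RNA gene LINC01135 that is transcribed away from JUN, and a further one 64663 bases upstream (chr1:59314383-59314683) had 1.09.

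The 7 genes thus fell on both sides of the typical distance. The start of FOSB was inside its peak, and those of FOSL1, JUNB and JUND were 533, 745 and 1468 bases from the nearest peak. JUN, FOS and FOSL2 followed at 31.9, 151 and 174 kb. The median was 1.47 kb, beside 84.9 kb over all protein-coding genes (quartiles 13.6 and 292 kb). These distances come from the same peaks as the count of members with a peak, so they are not a separate result. The nearest peaks of FOSB, FOSL1 and JUND had q-values above 0.05, and the genes were picked with results of this peak set known.

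**Figure D3:**
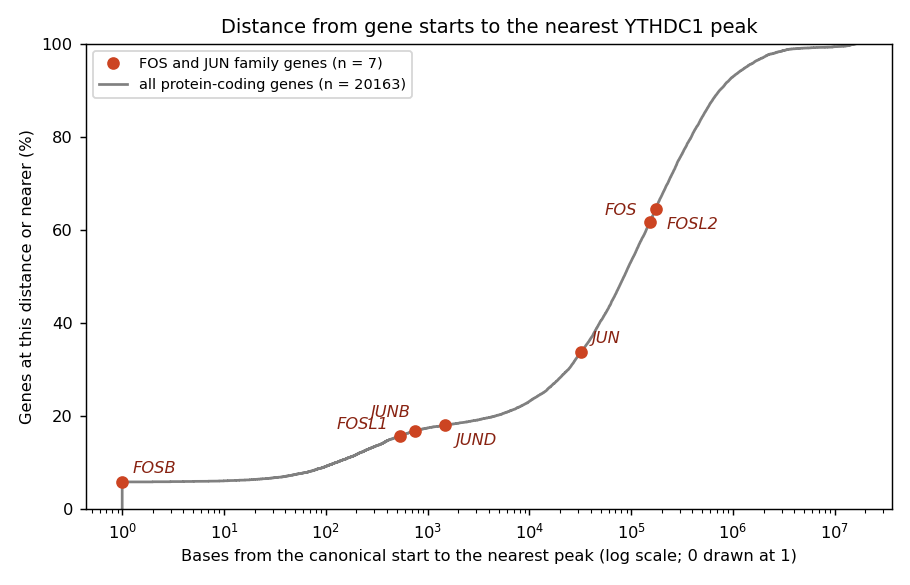
Percent of genes (y axis) whose canonical start lies at the given distance or nearer to a peak (x axis, bases, log scale, with 0 drawn at 1), for the 7 FOS and JUN family genes (red points) and all 20163 protein-coding genes (grey line). FOSB, FOSL1, JUNB and JUND lie below 1.5 kb, while JUN lies at 31.9 kb and FOS and FOSL2 lie at 151 and 174 kb.

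The wider AP-1 pathway was described with 4 lists, which were also put together with results of this peak set known. The list of partners held 16 genes for other basic zipper factors, several of which are known to pair with FOS or JUN. Of these 16, 8 had a peak (50.0%), beside the 25.1% of all protein-coding genes, and 5 had a start peak, beside 15.7% of all. ATF4, a factor of the integrated stress response, led with a −log10 q of 1.78 at its start (chr22:39916645-39916892). MAFG, a small MAF protein, and JDP2, a repressor that pairs with JUN, each reached 1.6 in an intron. ATF2, which pairs with JUN on the JUN promoter, had 1.22 in exon 1. ATF3 and ATF7 had no peak. Only 3 of the 16 still had one among the peaks past a q-value of 0.05, beside 14.3% of all protein-coding genes.

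The upstream activators gave 6 of 25 genes with a peak (24.0%), close to the 25.1% of all protein-coding genes, and 4 with a start peak, beside 15.7% of all. MAP2K3, a kinase that activates p38, had the highest value of this list, 4.06, at an alternative start 3376 bases downstream of the canonical one (chr17:21191236-21191562). SRF, the serum response factor that drives FOS and FOSB through the serum response element, had 2.32 in exon 1 (chr6:43139041-43139269). The kinase gene MAP2K4, upstream of JNK, had 1.63, and MRTFA, a cofactor of SRF, had 1.23 in an intron. ELK1 and ELK3, which bind beside SRF, had no peak. With a q-value under 0.05, 3 of the 25 had a peak, beside 14.3% of all protein-coding genes. None of the 25 genes had a peak near the canonical end, beside 2.73% of all. With 25 genes, a count of 0 has a 95% upper limit of 12%, so it does not show a lack of end peaks.

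Genes of turnover and feedback, which shut the AP-1 response off, had a peak in 6 of 12 cases (50.0%), beside 25.1% of all protein-coding genes, and 2 had a start peak, beside 15.7% of all. With 0 bases around the gene the 6 became 3, beside 21.5% of all protein-coding genes. DUSP1, a phosphatase that inactivates p38 and JNK, had a −log10 q of 2.53 past its end, from 176 to 604 bases beyond it (chr5:172194495-172194923). DUSP10, another such phosphatase, had 2.50 in front of its start, and DUSP4 had 2.26 over exon 1 in a peak of 1000 bases. ZFP36L1, which promotes decay of AU-rich mRNAs, had 1.35, again past the end, by 138 to 773 bases. DUSP5 and DUSP6 had no peak.

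Of 22 genes known as AP-1 targets, 10 had a peak (45.5%), beside 25.1% of all protein-coding genes, and 6 had a start peak, beside 15.7% of all. With a q-value under 0.05, 6 of the 22 had a peak, beside 14.3% of all. TGFB1, a growth factor gene, was highest with 4.00, but this peak of 1387 bases lay at the start of CCDC97 and 19587 bases or more past the canonical end of TGFB1. The other TGFB1 peak, at a start of the gene, had 1.09, a q-value above 0.05. TGFB1 thus counted among the 6 only through the peak at CCDC97. CCND1, encoding cyclin D1, had 2.47 from 90 to 722 bases past its end (chr11:69469332-69469964), where LTO1 is also annotated, and PLAUR, the urokinase receptor gene, had 2.00 in an intron. CXCL8, encoding interleukin-8, had 1.62 from 264 to 788 bases past its end. AREG and HMOX1 had no peak.

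**Figure D4:**
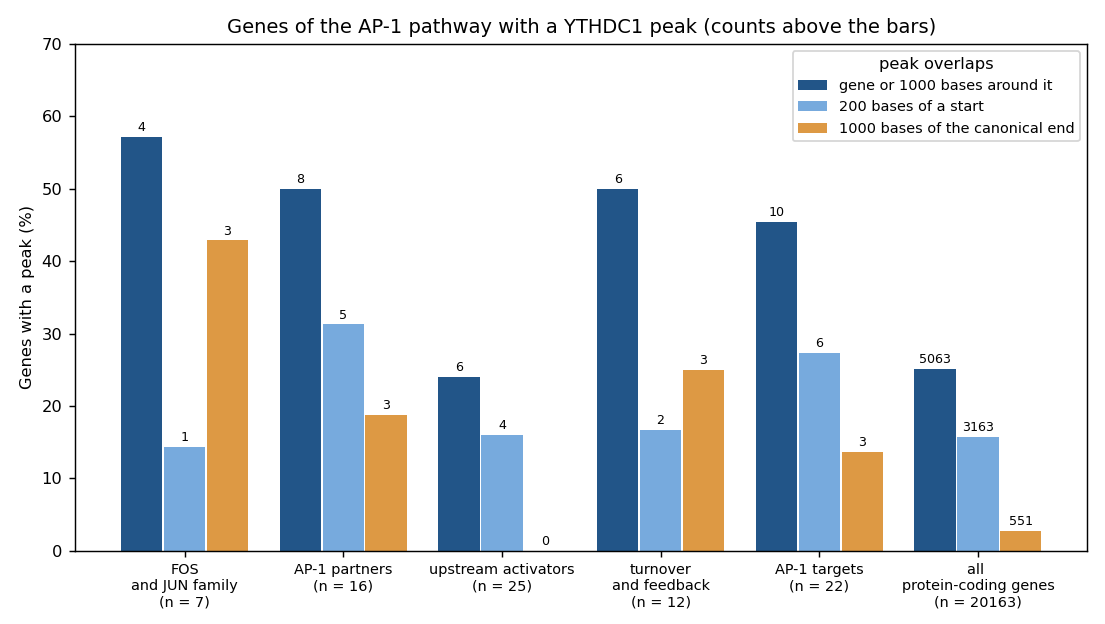
Percent of genes with a peak (y axis) for the FOS and JUN family, the 4 lists of the AP-1 pathway and, at the right, all protein-coding genes (x axis, number of genes in brackets), with the number of genes above each bar. Dark blue bars count peaks in the gene or 1000 bases around it, light blue bars those within 200 bases of a start and orange bars those within 1000 bases of the canonical end, where the families have 3 of 7 genes against 2.73% of all.

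Peaks near the canonical end also occurred in the other lists, in 3 of 16 partner, 3 of 12 feedback and 3 of 22 target genes, beside 2.73% of all protein-coding genes. In 8 of the 9 genes the peak lay wholly past the end, at a distance of 34 bases (ZFP36) to 568 bases (ATF4). These were ATF4, MAFG, MAFK, DUSP1, ZFP36, ZFP36L1, CCND1 and CXCL8, named here after their values had been seen. Over all protein-coding genes, 52.6% of the 591 pairs lay wholly past the end. Of the 9 end peaks, 2 (22.2%) lay at a start of another gene, beside 41.6% of all pairs. These were the peaks of MAFG, at a start of SIRT7, and of ZFP36, at MIR4530. The families differed from these lists in form, as 0 of their 3 end peaks lay wholly past the end, but with 3 and 9 peaks this is a description only.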

How the data were processed

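YTHDC1 ChIP-seq was done in A549 cells in 3 replicates of 1 group, crosslinked with formaldehyde and sheared by sonication. Per the study's methods the authors aligned the reads to hg19, joined the replicates and ran MACS2 in broad mode (q-value 0.1, broad cutoff 0.25). A control library for the calling is not given in the sources used here. The aligner was Bowtie2 per the methods, while the submitters' processing notes list BWA. The 1 value deposited per peak is read as −log10 of the q-value, because the lowest value, 0.610, lies just above 0.602, −log10 of the broad cutoff.

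Peaks were joined to GENCODE release 44 on GRCh37 (1 base of overlap, positions counted from 1) with Python 3.11.15, numpy 2.4.6, pandas 2.3.3 and matplotlib 3.10.9, and the overlap counts were tested on simulated data. The canonical start and end are those of the transcript that the annotation marks as canonical. For 282 protein-coding genes without that mark, the ends of the gene were used. Sequences came from GRCh37, and promoters for motif counts from RefSeq.

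The members and gene lists were chosen with earlier results of these data known. Named were all 7 members and, per list, up to 4 genes with the highest peaks and up to 2 without a peak, first in the alphabet. Without values per replicate no test was run, so the main counts of genes stand beside the share of all protein-coding genes under the same rule. A sequence and a gene of the lists, which stays in the counts, are not reported here.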

Additional observations from a re-analysis of the deposited data

How the results depend on the processing

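The counts of genes and peaks were repeated under other rules, and 27 of 35 stayed within 1.5 times the value reported. With only peaks of a q-value under 0.05, members with a peak numbered 2 (FOSL1 and JUNB), peaks at members 2 and members with a start peak 0. Under the same rule AP-1 partners with a peak numbered 3, upstream activators 3 and AP-1 targets 6. With 1000 bases on both sides of a start, members with a start peak numbered 4, beside 20.0% of all protein-coding genes. With 0 bases around the gene, turnover and feedback genes with a peak numbered 3. FOSB, FOSL1, JUNB and JUND stayed the members with a peak with 0 or 5000 bases around the gene, with the peak midpoint inside the window, and with the canonical transcript in place of the gene. The last of these was added after the data were seen. No paired analysis was possible because the replicates were pooled before peak calling, and for the same reason no replicate could be left out. The depth is unknown, so a gene without a peak may have signal below the calling threshold.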
